A study of Mus musculus with 217 samples.

Results

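Apoptosis through mitochondria is governed by the BCL2 protein family, and the transcripts of 10 of its genes were followed here across oocytes and granulosa cells of mice. The genes were taken by symbol from count tables of 53619 genes, and all 10 were present. Pro-survival members were Bcl2l10, Bcl2, Bcl2l1 and Mcl1, effectors were Bax and Bak1, and members with a BH3 domain only were Bad, Bid, Bbc3 and Pmaip1. Libraries were made with Smart-seq2, which amplifies full-length cDNA from single cells or small pools.

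Pro-survival proteins hold back the effectors, which otherwise permeabilise the outer mitochondrial membrane and release cytochrome c. BH3-only proteins answer stress by occupying the pro-survival proteins or by engaging the effectors, through a short helix, the BH3 domain. In the ovary, granulosa cells die by apoptosis when a follicle becomes atretic, and damage in oocytes of the follicle reserve acts through p63, PUMA (encoded by Bbc3) and NOXA (encoded by Pmaip1) in mice. Bcl2l10, also called Diva or Boo, is known for its high transcript level in the mouse ovary and oocyte.

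The study's question, as its title gives it, was whether resveratrol changes the aging ovary. Of 217 libraries, 18 came from granulosa cell pools, 28 from single oocytes of the C57BL6 strain and the rest from single oocytes of mixed C57BL6/129 mice, all oocytes being arrested in metaphase II. The mixed C57BL6/129 mice were Tet2 knockout or wild type (WT), and Tet2 encodes an enzyme that oxidises 5-methylcytosine. The labels do not say how the allele was made. Resveratrol, a plant polyphenol, was given at 30 mg per L of drinking water from 2 months of age, and controls drank its solvent, DMSO. At 2 months there were 15 knockout and 18 WT oocytes, without resveratrol. At 6 months knockout oocytes numbered 20 with resveratrol and 20 controls, and WT oocytes 14 and 20. At 10 months knockout oocytes numbered 15 with resveratrol and 15 controls, and WT oocytes 14 and 20. The C57BL6 oocytes were 10 from 10-month mice on resveratrol, 6 from 10-month controls and 11 from 6-month controls. One more carries labels that contradict each other and stayed out of its group. Granulosa pools were 3 each of 10-month knockout with resveratrol, 10-month knockout control, 10-month WT with resveratrol, 10-month WT control, 2-month knockout and 2-month WT. All females received pregnant mare serum gonadotropin, and those that gave oocytes also received hCG, so every library comes from a stimulated ovary.

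Oocyte libraries held 3386039 to 8775154 counts, C57BL6 libraries 3470831 to 11358927 and granulosa libraries 470647 to 20537935. Of the 6 granulosa libraries at 2 months, all but knockout replicate 2 stayed below 1000000 counts, whereas every 10-month pool had at least 5995491. Depth and age therefore cannot be told apart in those granulosa pools other than through that one library. The labels' genotype was checked by Tet2 itself. Summed Tet2 ranged from 0.941 to 1.38 counts per 1000000 (CPM) in the 5 knockout oocyte groups and from 2.3 to 3.39 CPM in the 5 WT groups, and edgeR's quasi-likelihood test put it lower by a log2 fold of -1.36 (SE 0.19, adjusted p = 0.036). In granulosa pools Tet2 was not lower under the knockout label (log2 fold 0.43, SE 0.29, adjusted p = 0.479 by edgeR in 10-month controls), and those pools are called knockout-labelled below. Of the labels, 18 oocytes whose titles read WT at 2 months also carry a knockout tag, and the titles were followed. The 15 oocyte markers made up 0.805% to 3.61% of counts in the C57BL6/129 oocytes, with none of them at 0 in any group. The 12 granulosa markers made up 0.131% to 0.568% of counts in granulosa pools, also with none at 0 in any group. In cell pools, fewer cells of a type and less RNA per cell cannot be told apart.

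The BH3 domain is what lets most of these proteins recognise each other, and its most conserved core is a leucine, 3 variable residues, a small residue and an aspartate. A search of the GENCODE coding sequences for a leucine codon, any 3 codons, a codon for glycine, alanine or serine and an aspartate codon, in frame, found it once in each of 8 of 9 members searched. Of 5783 genes with coding lengths between 191 and 331 codons, 1241 (21.5%) hold such a run at least once, so a match on its own identifies no family member. The sequences below are shown because the core is shared by members whose levels go opposite ways between the cell types. They run 5′ to 3′ on the coding strand, with the core in capitals.
Bcl2: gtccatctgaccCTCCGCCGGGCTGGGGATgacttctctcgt
Bcl2l1: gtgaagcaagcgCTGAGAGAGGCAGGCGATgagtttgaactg
Mcl1: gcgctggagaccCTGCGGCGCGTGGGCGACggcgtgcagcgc
Bax: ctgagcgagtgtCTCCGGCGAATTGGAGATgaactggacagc
Bak1: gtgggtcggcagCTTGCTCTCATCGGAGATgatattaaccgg
Bad: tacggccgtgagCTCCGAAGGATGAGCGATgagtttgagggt
Bid: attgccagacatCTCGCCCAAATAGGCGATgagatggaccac
Bbc3: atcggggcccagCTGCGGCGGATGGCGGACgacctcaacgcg
The core of Bcl2l10 did not match, which says only that these letters are not in its 573 coding bases. Its first 90 coding bases, with the start codon in capitals, are given because this gene carries the main result.
Bcl2l10: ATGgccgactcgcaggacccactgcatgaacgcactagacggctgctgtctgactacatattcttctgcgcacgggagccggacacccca
The Bcl2l10 gene lies at chr9:75347758-75351632 on the plus strand (GRCm38), with 1 annotated transcript and no overlapping gene. Bcl2l1, Mcl1, Bbc3 and Pmaip1 also overlap no other annotated gene. Bcl2, Bax, Bak1, Bad and Bid do. No source used here states a strand setting of the counting, so some of their counts may belong to a neighbour. Bax shares its own strand with Gm45808, and Bid overlaps Bcl2l13, itself a family relative, on the other strand.

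In oocytes the family consisted almost wholly of Bcl2l10 transcripts. Per kb of merged exons, Bcl2l10 had a median of 5367 CPM over the C57BL6/129 oocytes, with a lowest of 3804 and a highest of 9263. Bcl2l1, which encodes the pro-survival BCL-XL, followed at a median of 13.7 CPM per kb and a range of 6.18 to 55.9, below Bcl2l10 in every oocyte. Bid, a BH3-only protein activated by caspase 8, had a median of 2.87 CPM per kb and Bax 2.04, and Bid stood above Bax in 121 of these oocytes, but their ranges overlapped.

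The other 6 members were near the limit of detection in oocytes. Per kb their medians were 0.166 CPM for Pmaip1, 0.134 for Mcl1, 0.0897 for Bad and 0.0124 for Bcl2, and Bak1 and Bbc3 had medians of 0. Pmaip1 exceeded Mcl1 in 79 oocytes and Mcl1 exceeded Bad in 83, a minority in both cases, so neighbours in this order do not separate. At least 1 count was present in every oocyte for Bcl2l10, Bcl2l1, Bax and Bid. That number was 132 for Mcl1, 114 for Pmaip1, 106 for Bad, 86 for Bcl2, 22 for Bak1 and 16 for Bbc3. A single oocyte held counts for 4 to 9 of the 10 members, with a median of 7. Absence of a count at these depths does not show that a transcript is absent.

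Granulosa pools showed a different order. Bax led with a median of 61.4 CPM per kb over the 18 pools (47.4 to 100.8), ahead of Mcl1 at 33.9 (19.7 to 61.3) in 15 of 18. Bad, whose protein binds BCL-XL and BCL2 and is held in check by survival signalling, had 17.8 CPM per kb and Bid 5.59. Bcl2l1 had 2.67, Bak1 1.54, Bcl2l10 1.41 and Bbc3 1.09, and of these Bak1 exceeded Bcl2l10 in only 8 pools. Pmaip1 at 0.171 and Bcl2 at 0.112 CPM per kb were lowest. Of the 18 pools, 10 held counts for all members.

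**Figure D1:**
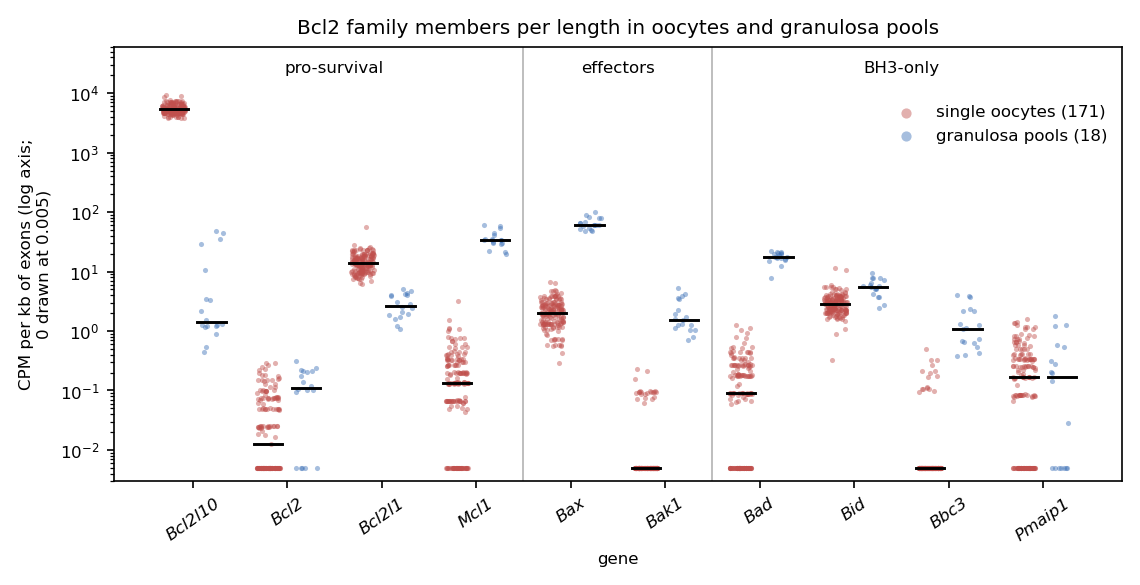
CPM per kb of merged exons (log axis) of each member in single C57BL6/129 oocytes and 18 granulosa pools, with a black line at the median and values of 0 drawn at 0.005. Bcl2l10 is above 3804 CPM per kb in every oocyte, far from the other members, while Bax and Mcl1 lead in granulosa pools.

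As shares of the 10 members per kb, those listed as pro-survival made up 99.9% in oocytes and 34.8% in granulosa pools. The classes are those assigned above, and what the members do in these cells, Bcl2l10 included, was not tested. The effectors made up 0.0395% in oocytes and 47.5% in granulosa pools, and the BH3-only members 0.0625% in oocytes and 17.7% in granulosa pools. Bcl2l10 alone was 99.6% of the 10 members in oocytes and 7.31% in granulosa pools, all by means over libraries. In single pools its share had a median of 1.18%, with 0.346% to 2.51% in the 12 pools at 10 months and 3.02% to 27.3% in the 6 at 2 months, so the 2-month pools make the mean. These shares compare transcripts, which need not mirror the proteins.

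Oocytes were then tested against granulosa pools in 6 matched groups of age, genotype and treatment, each cell type summed within its group. This contrast separates most genes: edgeR called 21511 of 24670 genes (87.2%), of which 42.8% of the tested genes were higher and 44.4% lower in oocytes. The 8 members called among 10 are thus close to the background. The members' log2 folds ran from -6.96 to 11.94, so their median of -2.74, beside -0.13 over all genes tested, stands for no common direction.

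There were 2 members higher in oocytes. Bcl2l10 averaged 9190 ± 1580 TMM-scaled CPM in oocyte sums and 7.14 ± 12.4 in granulosa sums (SD, n = 6 each), a log2 fold of 11.94 (SE 0.89, adjusted p = 6.41e-08 by edgeR). Bcl2l1 averaged 97.4 ± 24.4 in oocyte sums and 9.39 ± 2.18 in granulosa sums, a log2 fold of 3.36 (SE 0.20, adjusted p = 7.39e-09 by edgeR). Neither gene's oocyte sums overlapped its granulosa sums.

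There were 6 members lower in oocytes. Mcl1, the short-lived pro-survival protein that most somatic cells depend on, averaged 0.757 ± 0.248 TMM-scaled CPM in oocyte sums and 93.0 ± 24.3 in granulosa sums, with a log2 fold of -6.94 (SE 0.27). Both effectors were lower, Bak1 by a log2 fold of -6.96 (SE 0.50) and Bax by -4.19 (SE 0.23). Bax averaged 4.20 ± 1.16 in oocyte sums and 75.3 ± 9.92 in granulosa sums. Bad had a log2 fold of -6.26 (SE 0.32) and Bbc3 of -6.42 (SE 0.77). The adjusted p of these 5 genes by edgeR ranged from 2.94e-10 for Mcl1 to 6.39e-06 for Bbc3. Bcl2 passed narrowly at -1.29 (SE 0.56, adjusted p = 0.0467 by edgeR), with 0.485 ± 0.258 in oocyte sums and 0.986 ± 0.543 in granulosa sums, and it passed in 3 of 9 alternatives.

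For Bid and Pmaip1 no difference was detected. Bid averaged 13.7 ± 2.54 TMM-scaled CPM in oocyte sums and 16.7 ± 3.36 in granulosa sums (log2 fold -0.29, SE 0.19, adjusted p = 0.171 by edgeR). With all sums thinned to one depth Bid passed at -0.89 (adjusted p = 0.00367 by edgeR). Pmaip1 averaged 1.09 ± 0.696 in oocyte sums and 0.928 ± 0.898 in granulosa sums (log2 fold 0.48, SE 0.90, adjusted p = 0.625 by edgeR).

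Related genes outside the 10 followed both directions. Of 16 other BCL2 relatives 14 were tested, with 4 higher and 10 lower in oocytes. Bok, an effector relative, had a log2 fold of -9.34 (SE 0.52), Bcl2l2, encoding the pro-survival BCL-W, of -3.96 (SE 0.26), and the mitophagy receptor gene Bnip3 of -2.77 (SE 0.22). Of 20 genes of the caspase machinery 4 were higher and 12 lower. Birc3, an inhibitor of apoptosis, stood at a median of 1204 CPM in oocytes and 12.6 CPM in granulosa pools (log2 fold 7.15, SE 0.25). Casp6, an executioner caspase, stood at a median of 0.699 CPM in oocytes and 118 CPM in granulosa pools (log2 fold -6.57, SE 0.36), and the mitochondrial nuclease gene Endog was also lower (-4.0, SE 0.25).

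Of 12 genes of the p53 family and its targets, 5 were higher and 5 lower in oocytes. The p53 inhibitors Mdm4 and Mdm2 had log2 folds of 6.76 (SE 0.28) and 3.75 (SE 0.17), and Trp63, encoding the p63 protein that guards the oocyte genome, of 6.35 (SE 0.48). Cdkn1a, the p53 target that encodes the cell cycle inhibitor p21, was lower (-6.31, SE 0.24). As 87.2% of all genes were called in this contrast, these counts too lie near the background.

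Within oocytes, the level of Bcl2l10 was high throughout, and its spread was not compared with that of genes of like level. It had a median of 6548 CPM, a range of 4641 to 11300 and a coefficient of variation of 18.1% over the C57BL6/129 oocytes, and it ranked 9th of all genes by mean CPM. The genes whose log2 CPM most resembled it over these oocytes, among 6183 compared, were H1foo, the oocyte linker histone (Spearman rho 0.67), Mphosph6 (0.66), Ypel5 (0.65), Cks1b (0.64) and Dpy30 (0.61). Bcl2l1 (rho 0.06) and Bid (-0.22) did not follow it. These values are descriptions, since oocytes of a group share a source and all libraries share the scaling to a total.

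Across age, genotype and treatment, no member was called in oocytes. The 10 group sums entered an additive edgeR model in which 8 members were tested, Bak1 and Bbc3 being too low. At an adjusted p under 0.05, 0.00% of 20806 genes passed for 6 against 2 months, 0.00481% for 10 against 2 months, 0.00481% for 10 against 6 months, 0.139% for genotype and 0.00% for resveratrol. Few genes of any kind were called, and with shares this low 0 of 8 is no result about the members. The background depends on the method: DESeq2 called 129, 684, 879, 600 and 0 genes in these contrasts in the same order, and likewise 0 members. Bcl2l10 changed by a log2 fold of -0.10 (SE 0.17) at 6 against 2 months, -0.02 (SE 0.17) at 10 against 2 months and 0.09 (SE 0.13) at 10 against 6 months. It differed by 0.10 (SE 0.12) between knockout and WT and by -0.13 (SE 0.13) between resveratrol and control. At an unadjusted p under 0.05, where 12.9% of all genes passed for genotype, so did 2 members, Pmaip1 at -0.74 (SE 0.28) and Bcl2l1 at -0.40 (SE 0.17). Their adjusted p were 0.319 and 0.380 by edgeR. At that unadjusted level Bcl2l1 (-0.66, SE 0.25) and Pmaip1 (-0.99, SE 0.41) also passed for 6 against 2 months, Pmaip1 (-0.98, SE 0.40) for 10 against 2 months and Bad (-0.89, SE 0.37) for 10 against 6 months. Of all genes 9.16%, 13.5% and 16.6% passed at that level in these age contrasts, in the same order. For resveratrol 0 members and 1.74% of genes did.

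The spread in that model includes any effect that is confined to some groups, and single groups of oocytes did stand apart. As no animal is named for any oocyte and each group is 1 sum, what follows is a description, with 95% intervals that cover counting error only. Bcl2l10 in 10-month WT oocytes on resveratrol ranged from 4641 to 6256 CPM (median 5656), against 6342 to 11300 CPM (median 7778) in their 10-month WT controls. All 14 treated oocytes lay below all 20 controls, and the log2 ratio of the sums was -0.51 (-0.51 to -0.50). The columns' names divide each of these groups into 2 sets, with sums of 5526 and 5556 CPM on resveratrol and 7997 and 7707 CPM in controls.

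The same treatment left Bcl2l10 nearly level in the other 3 pairs. At 6 months the log2 ratio of resveratrol to control was -0.01 in WT and 0.08 in knockout oocytes, and at 10 months in knockout oocytes it was -0.03. In those knockout oocytes the range was 5602 to 9095 CPM (median 6432) on resveratrol and 5521 to 8746 CPM (median 6868) in controls, which overlap throughout. In WT controls Bcl2l10 had summed levels of 6268 CPM at 2 months, 6204 CPM at 6 months and 7868 CPM at 10 months. In knockout oocytes without resveratrol it had 7876 CPM at 2 months, 6646 CPM at 6 months and 7001 CPM at 10 months. The higher level at 10 months in WT thus had no counterpart of that size in knockout oocytes, and the difference between the genotypes was not tested.

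In C57BL6 oocytes Bcl2l10 was lower at the later age. It ranged from 4685 to 6254 CPM (median 5483) in 10-month controls, against 6727 to 9068 CPM (median 7769) in 6-month controls. All 6 older oocytes lay below all 11 younger ones, with a log2 ratio of sums of -0.56 (-0.57 to -0.55). In WT controls of the mixed C57BL6/129 background, the same ages gave 0.34 (0.34 to 0.35), and over the 4 pairs of that background at 10 against 6 months the ratio was positive in 2 and negative in 2 (-0.16 to 0.34). The 10 C57BL6 oocytes on resveratrol ranged from 4393 to 6466 CPM (median 5286) and overlapped their 10-month controls (log2 ratio 0.04, 0.03 to 0.04). Strain and the separate table of these oocytes cannot be told apart.

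By group sums, Bcl2l1 was higher in knockout than in WT oocytes at 2 months and lower at the later ages. A dependence of genotype on age was not tested. At 2 months it ranged from 66.5 to 257 CPM (median 93.6) in knockout oocytes and from 52.4 to 107 CPM (median 76.3) in WT oocytes, a log2 ratio of sums of 0.48 (0.43 to 0.53). One 2-month knockout oocyte gave the 257 CPM, and the next highest of all oocytes had 128. At 6 months the order was the opposite. Controls ranged from 29.3 to 83.8 CPM (median 45.3) in knockout oocytes and from 35.3 to 116 CPM (median 77.4) in WT oocytes (-0.60, -0.66 to -0.55). On resveratrol at 6 months the medians were 41.1 CPM in knockout and 75.0 CPM in WT oocytes (-0.85, -0.92 to -0.79), and 17 of 20 knockout oocytes lay below all 14 WT oocytes.

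At 10 months the knockout sums of Bcl2l1 were again the lower ones, by a log2 ratio of -0.14 (-0.20 to -0.08) in controls and -0.62 (-0.68 to -0.56) on resveratrol. By the number in the column names, these controls gave 73.0, 46.4 and 62.0 CPM in knockout oocytes and 69.1 and 61.4 CPM in WT oocytes. The group of 6-month knockout controls lay -1.07 (-1.12 to -1.02) from that of 2-month knockouts, with 18 of 20 oocytes below all 15 younger ones. In WT the same step was 0.01 (-0.04 to 0.06). In C57BL6 oocytes Bcl2l1 hardly differed, with summed levels of 80.3 CPM in 10-month oocytes on resveratrol, 83.8 CPM in 10-month controls and 87.0 CPM in 6-month controls.

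Bax and Bid, the other members counted in every oocyte, moved between single groups without a common direction. Bax at 2 months ranged from 2.03 to 10.4 CPM (median 4.56) in knockout oocytes and from 0.673 to 3.84 CPM (median 2.45) in WT oocytes, a log2 ratio of sums of 0.92 (0.66 to 1.19). At 6 months controls gave 0.71 (0.48 to 0.94) and at 10 months -0.03 (-0.28 to 0.23). With resveratrol Bax was higher in WT at 6 months by 0.69 (0.44 to 0.95) and lower in knockout oocytes at 10 months by -0.65 (-0.97 to -0.35).

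Bid was highest in 6-month knockout controls, which ranged from 7.32 to 21.2 CPM (median 14.8), against 5.57 to 13.7 CPM (median 8.95) in WT controls (log2 ratio 0.66, 0.53 to 0.78). In 10-month WT controls Bid ran from 1.14 to 40.0 CPM with a median of 8.22, and 2 oocytes alone, at 40.0 and 38.2 CPM, lay far above the rest. By the number in its column names, that group's sums were 6.23 CPM over 11 oocytes and 17.3 CPM over 9. In C57BL6 oocytes Bid gave -0.29 (-0.51 to -0.08) on resveratrol and -0.10 (-0.32 to 0.11) at 10 against 6 months.

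**Figure D2:**
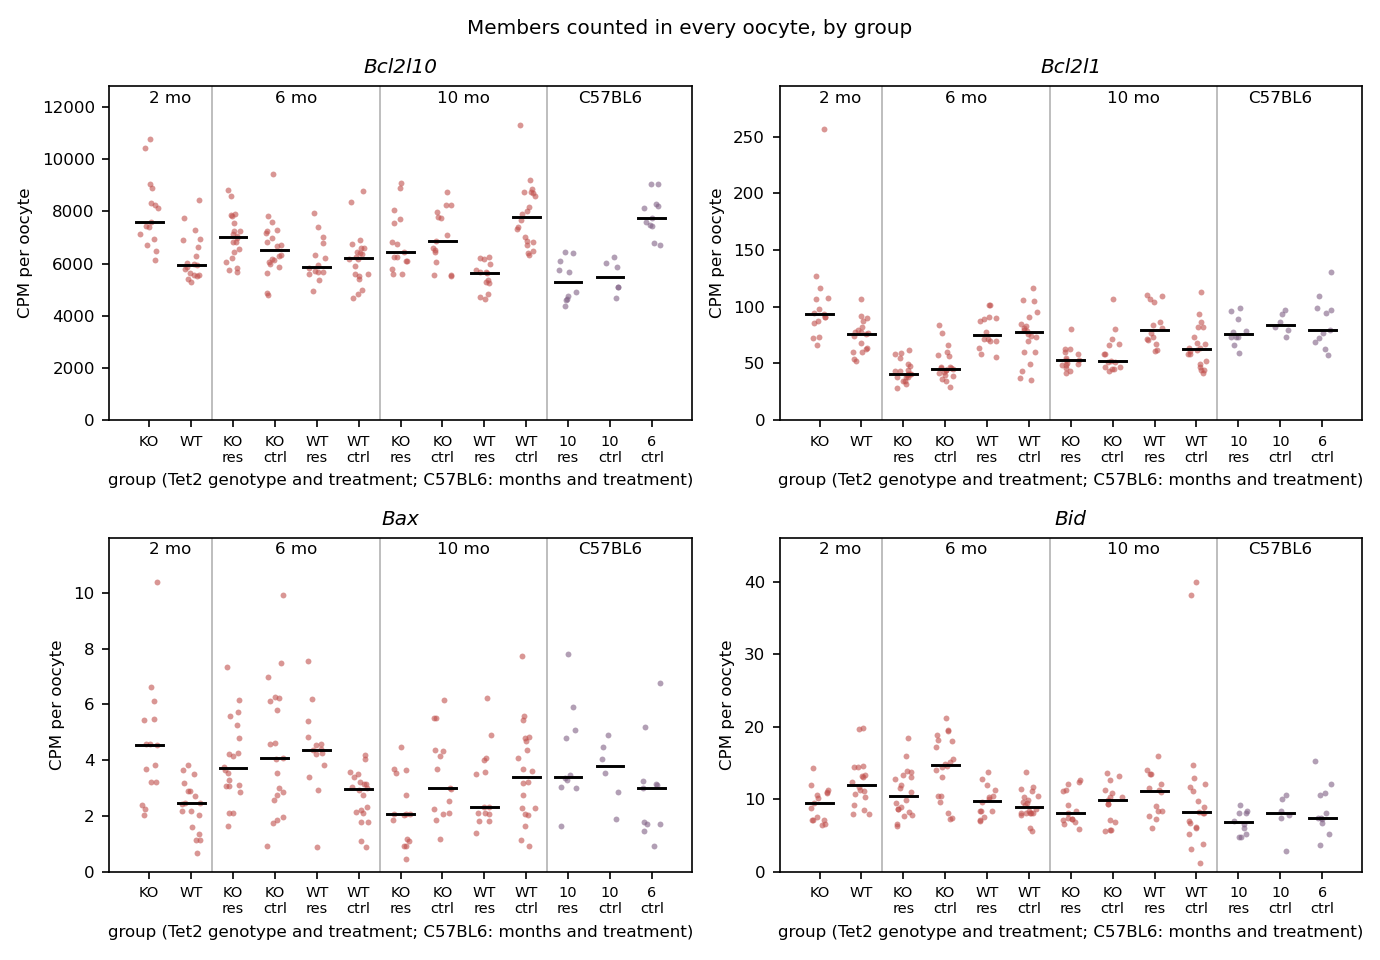
CPM of the 4 members counted in every oocyte, each point a single oocyte, by age, Tet2 genotype and treatment, with C57BL6 oocytes at the right and a black line at the group median. For Bcl2l10 all 14 WT oocytes on resveratrol at 10 months (4641 to 6256 CPM) lie below their 20 controls (6342 to 11300 CPM).

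The remaining members rested on few counts per oocyte. Mcl1 was highest in 6-month knockout controls, at a summed 1.68 CPM against 0.622 CPM in 6-month WT controls (log2 ratio 1.42, 0.98 to 1.9), and 1 oocyte of that group reached 10.8 CPM. That oocyte also had the group's highest Bax (9.94 CPM) and its highest share of macrophage and leukocyte markers (0.0390% of counts, group median 0.00326%), and without it the Mcl1 sum was 1.22 CPM. By the number in the column names, Mcl1 sums within that group were 0.684, 2.89 and 1.69 CPM. Pmaip1 was highest in 2-month WT oocytes at 1.64 CPM, against 0.720 CPM in 2-month knockout oocytes (-1.18, -1.67 to -0.73 with the knockout on top). Its knockout sums were the lower ones in 4 of the 5 matched pairs. Bak1 had a count in 10 of 20 oocytes of the 6-month knockout controls and in 0 to 3 oocytes of every other C57BL6/129 group. Granulosa marker transcripts were highest in the same group, with a median of 0.0115% of counts, a highest of 0.0219% and 0 of 12 markers at 0, against medians of 0.00429% to 0.00740% in the other 9 groups. Mcl1 and Bak1 are both far higher in granulosa pools, and the part of these transcripts in their levels was not tested. In C57BL6 controls at 10 against 6 months, Mcl1 gave 1.05 (0.41 to 1.73), Bcl2 0.97 (0.10 to 1.91) and Pmaip1 -2.31 (-4.15 to -1.05), each from 58 counts or fewer per group. With resveratrol the 10-month C57BL6 oocytes gave -0.84 (-1.65 to -0.05) for Bcl2, -0.67 (-1.22 to -0.12) for Mcl1 and 0.88 (0.03 to 1.86) for Bad.

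In granulosa pools 9 contrasts were tested within 1 edgeR model of 17558 genes, and all 10 members passed the filter on low counts. In at least 1 contrast 3 members were called. For WT controls at 10 against 2 months the share of genes called was 1.53% and 1 member was called, and for knockout-labelled controls it was 5.17% with 2 members called. For knockout-labelled against WT pools 1 member was called in 10-month controls (3.86% of genes), 0 at 2 months (0.114%) and 0 on resveratrol at 10 months (1.07%). For resveratrol 0 members were called in WT (1.62%) and 0 under the knockout label (0.0285%), and neither interaction called one (0.137% and 0.159%). These shares rest on single pools. With 1 pool left out in turn they were 0.325% to 0.649% for age in WT, 1.86% to 7.55% for age under the knockout label, 1.00% to 5.17% for genotype in 10-month controls and 0.0163% to 0.432% for resveratrol in WT.

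Bcl2l10 was lower in 10-month pools. In WT it had 4.00, 1.84 and 2.7 CPM in 10-month controls, against 59.4, 12.7 and 53.9 CPM at 2 months. The groups did not overlap. The log2 fold was -4.0 (SE 0.65, adjusted p = 0.00242 by edgeR), and the call held in all 12 alternatives, from -4.45 to -3.14. Under the knockout label it had 1.56, 1.4 and 1.46 CPM in 10-month controls, against 36, 4.14 and 42.9 CPM at 2 months, with a log2 fold of -4.0 (SE 0.67, adjusted p = 0.00138 by edgeR). The value of 4.14 CPM belongs to the only 2-month library of ordinary depth. With the shallow libraries left out it is the only one of its group, and the log2 fold became -1.39 (adjusted p = 0.205 by edgeR), where the lone library is assumed to vary like the other groups. WT has no 2-month library above 1000000 counts, so the same check could not be made there.

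The counts behind these levels were small. They were 24, 34 and 40 reads in 10-month WT controls, against 38, 6 and 27 at 2 months. They were 19, 17 and 30 reads under the knockout label at 10 months, against 27, 48 and 31 at 2 months. Apart from knockout-labelled replicate 2 at 2 months, the reads of the 2-month pools stand over totals of 470647 to 749172, and those of the 10-month pools over at least 5995491.

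Several oocyte transcripts moved with Bcl2l10 in these pools, but not all of the listed markers did. Gdf9, which encodes an oocyte growth factor, had 3.00, 1.73 and 1.01 CPM in 10-month WT controls, against 117, 40.4 and 97.9 CPM at 2 months. Under the knockout label it had 0.737, 0.990 and 1.36 CPM in 10-month controls, against 46.7, 0.0862 and 66.5 CPM at 2 months. The 15 oocyte markers together made up 0.00154% to 0.00252% of counts in 10-month pools, against 0.0113% to 0.0291% in 2-month WT and 0.00241% to 0.0184% in 2-month knockout-labelled pools. Of the 10 oocyte markers tested, 4 were called lower at 10 months in WT and 6 under the knockout label, and 0 were higher. Of all genes 1.53% and 5.17% were called in these contrasts. However, Bmp15 and Nlrp14 had at most 4 reads in any 10-month pool and passed the filter on low counts through 2-month pools. For such markers a call could only be lower, so these counts of markers are no test of the list. Among the markers not called, Kpna7 had log2 folds of -0.61 (SE 0.33) in WT and -0.43 (SE 0.30) under the label. Oog1 had 0.46 (SE 0.85) in WT and -1.06 (SE 0.58) under the label. Among defining markers, Bmp15 was at 0 counts in 9 of 12 pools at 10 months and in knockout-labelled replicate 2 at 2 months. The part of oocyte RNA in the Bcl2l10 result was not tested.

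The ratio of Bcl2l10 to oocyte markers depended on the marker used. Per count of the 15 oocyte markers, 10-month pools held 0.0389 Bcl2l10 counts under the knockout label with resveratrol, 0.0825 in knockout-labelled controls, 0.0748 in WT with resveratrol and 0.106 in WT controls. The 2-month pools held 0.205 under the knockout label and 0.205 in WT. Kpna7 alone made up 75.1% to 79.9% of the list's counts in the 10-month groups, against 1.77% in oocytes. At 2 months it made up 45.7% under the knockout label and 12.1% in WT. Oog1 made up 11.25% to 14.5% in the 10-month groups, against 1.88% in oocytes. Per count of Gdf9 alone the order in WT was the opposite, with 1.51 Bcl2l10 counts in 10-month controls and 0.497 at 2 months, and under the knockout label it was 1.35 in 10-month controls and 1.26 at 2 months. Single oocytes held 0.157 to 0.861 per count of the 15 markers. In knockout-labelled replicate 2 at 2 months, 48 Bcl2l10 reads stood beside 1 read of Gdf9 and 0 of Bmp15. The genes most like Bcl2l10 over the 18 pools, of 13732 compared, were Accsl (Spearman rho 0.90), Usp46os2 (0.89), Prep, Mtfr2 and Plat (0.88 each), a description over pools that fall into deep and shallow ones.

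**Figure D3:**
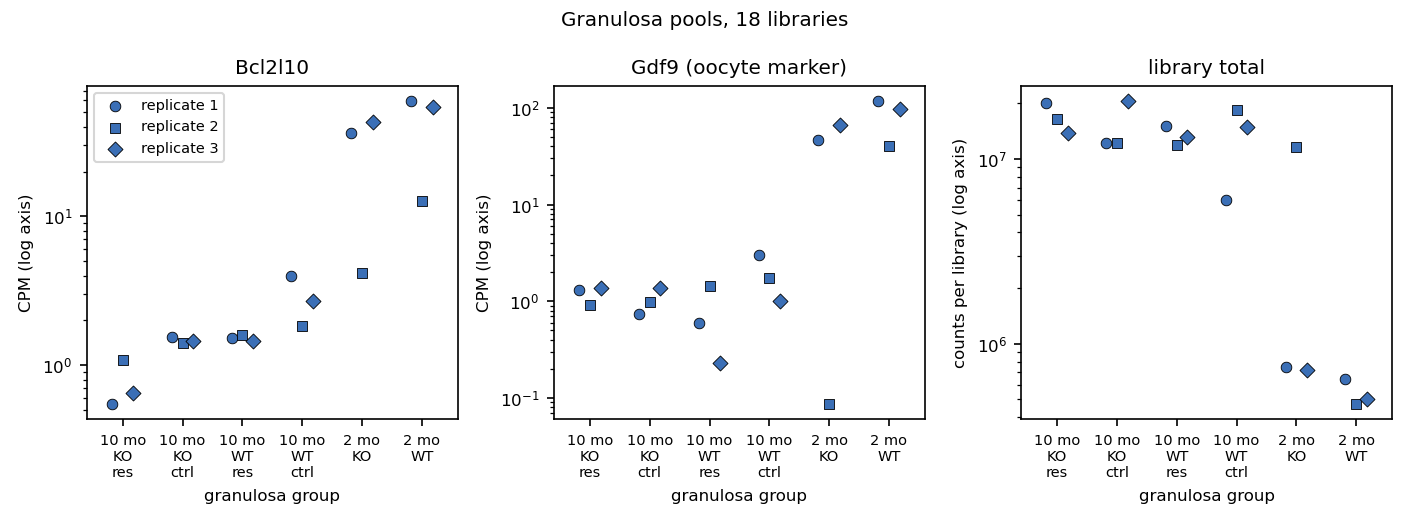
Bcl2l10 and the oocyte marker Gdf9 in CPM, and the library total in counts, all on log axes, in the 18 granulosa pools, with a marker shape for each replicate number. Bcl2l10 is at 4.00 CPM or below in all 12 pools at 10 months and at 4.14 to 59.4 CPM at 2 months, and the 5 libraries below 1000000 counts are those with the highest Bcl2l10.

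Mcl1 was called for age under the knockout label. It averaged 178 ± 48.8 TMM-scaled CPM in 10-month controls and 93.4 ± 14.2 at 2 months (SD, n = 3 each), from 216, 196 and 123 against 77.2, 99.1 and 104. The log2 fold was 0.92 (SE 0.24, adjusted p = 0.0264 by edgeR), and it passed in 5 of 13 alternatives. The adjusted p was 0.217 without the shallow libraries and 0.0539 with RLE size factors, and it was 0.196 with only the groups compared. It was 0.0756 and 0.0847 without 2-month replicate 1 or 3, and 0.154 and 0.132 without 10-month replicate 1 or 2. In WT the log2 fold was 0.45 (SE 0.26, adjusted p = 0.405 by edgeR), and the difference between the labels was 0.48 (SE 0.35, adjusted p = 0.814 by edgeR).

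Pmaip1 was present in 10-month knockout-labelled controls and without a read in their WT counterparts. It had 60, 42 and 11 reads in the knockout-labelled pools, against 0, 0 and 0 reads in the 3 WT pools, whose totals give a floor of 0.0763 CPM for 3 counts over the group. The sum was 2.52 CPM in knockout-labelled controls, at least 33.0-fold higher than that floor, and edgeR gave an adjusted p of 0.00319. Pmaip1 passed the filter on low counts mainly through knockout-labelled pools, and it failed the filter with only the groups compared. With no read in WT controls a call could only be higher, so this p adds no support beyond the reads. With 1 pool left out, the bound was 54.9-fold without knockout-labelled replicate 3, 21.3-fold without replicate 1, and 17.5-fold or 20.5-fold without WT replicate 2 or 3. On resveratrol at 10 months Pmaip1 had 11, 14 and 20 reads under the knockout label, against 6, 9 and 1 reads in WT, and did not pass (log2 fold 1.1, SE 0.93, adjusted p = 0.791 by edgeR). For resveratrol in WT, the 16 reads against 0 are at least 5.23-fold above the floor (adjusted p = 0.0862 by edgeR). At 2 months knockout-labelled replicate 2 held 38 reads and the other 5 libraries held 1 read in all.

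White blood cell transcripts moved with the same contrast. The 17 macrophage and leukocyte markers made up 0.143% to 0.178% of counts in 10-month knockout-labelled controls, against 0.0175% to 0.0214% in 10-month WT controls. Of the 17, 14 were called higher, beside 3.86% of all genes. In knockout-labelled replicates 1, 2 and 3 their share was 0.143%, 0.178% and 0.160%. Pmaip1 in these replicates was at 5.06, 3.65 and 0.567 TMM-scaled CPM, and Mcl1 at 216, 196 and 123. On resveratrol the markers' share was 0.0464% to 0.101% under the knockout label, against 0.0279% to 0.0418% in WT. The same markers were called higher in 7 of 17 cases for age under the knockout label, beside 5.17% of all genes. For resveratrol in WT it was 6 of 17, beside 1.62% of all genes. The 12 markers of theca, stroma, endothelium and red cells made up 0.123% to 0.158% of counts in 10-month knockout-labelled controls, against 0.0247% to 0.0424% at 2 months under that label and 0.0245% to 0.312% in 10-month WT controls. The part of either list in the results for Pmaip1 and Mcl1 was not tested.

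The other 7 members were not called in any granulosa contrast. Bax, with 71.7 to 164 TMM-scaled CPM over all 18 pools, had log2 folds between -0.23 and 0.34. Bad ran from 18.9 to 61.2 TMM-scaled CPM and Bid from 8.10 to 35.9. Bcl2l1 ran from 5.12 to 23.2, and in 10-month knockout-labelled controls 2 pools had 5.65 and 5.12 while replicate 3 had 19.2, against 17.2, 17.3 and 16.5 in WT controls. Without that pool Bcl2l1 was called lower under the knockout label (log2 fold -1.72, adjusted p = 0.00839 by edgeR) and lower with age under that label (-1.55, adjusted p = 0.0267 by edgeR). With all pools the values were -0.75 (SE 0.40, adjusted p = 0.352) and -0.63 (SE 0.47, adjusted p = 0.507) by edgeR. Bbc3 had 0.867 to 8.20 TMM-scaled CPM and Bak1 1.55 to 12.2. Bcl2 had 0 reads in all 3 WT pools at 2 months and in 2 of the 3 knockout-labelled ones, at depths where few reads would be seen.

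**Figure D4:**
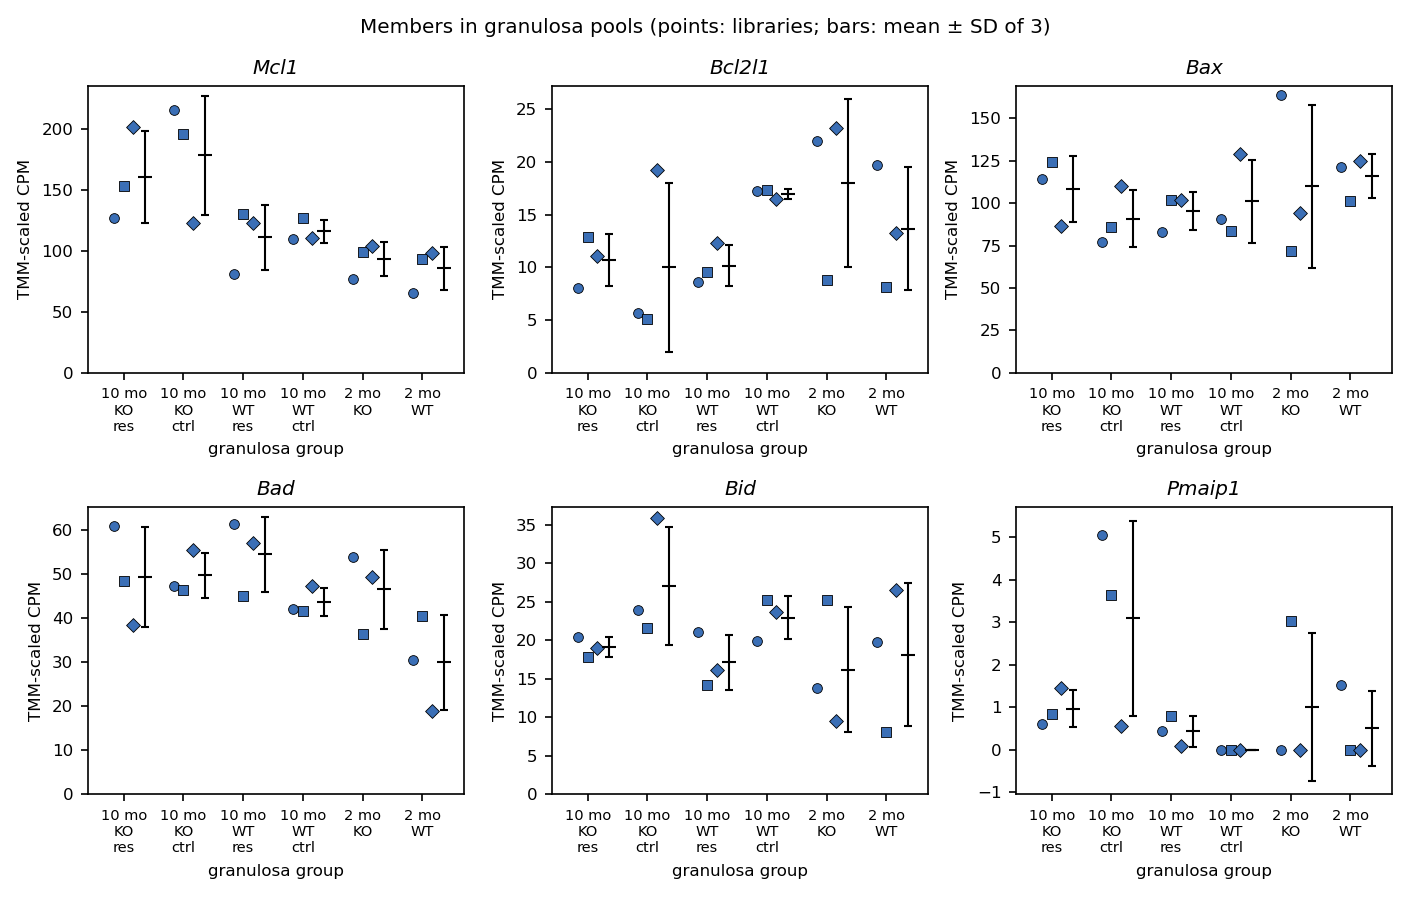
TMM-scaled CPM of 6 members in the 18 granulosa pools, by age, genotype label and treatment, with a point for each library and bars for the mean ± SD of 3. Pmaip1 is at 0 in the 3 WT controls at 10 months and at 0.567 to 5.06 in the knockout-labelled ones, and Mcl1 reaches 216 in a 10-month knockout-labelled control.

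Downstream of the family, a few genes were called in granulosa pools and 0 in the oocyte contrasts of age, genotype and resveratrol. Cycs, which encodes cytochrome c, had 176, 164 and 120 CPM in 10-month knockout-labelled controls, against 75.9, 95.1 and 106 CPM in WT controls (log2 fold 0.92, SE 0.20, adjusted p = 0.0101 by edgeR). It was also higher for age under the knockout label (1.02, SE 0.21) and for resveratrol in WT (0.86, SE 0.20). Casp6 had 218, 199 and 193 CPM in those knockout-labelled controls, against 89.1, 90.1 and 94.6 CPM in WT controls (1.34, SE 0.18, adjusted p = 0.000162 by edgeR), and was also higher under the label on resveratrol (0.95, SE 0.18). The groups of Casp6 did not overlap in either treatment.

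Bcl2a1b, a pro-survival relative expressed in blood cells, was higher in knockout-labelled controls at 10 months, with 13.1, 12.9 and 10.0 CPM against 1.33, 0.433 and 0.337 CPM in WT controls (log2 fold 4.48, SE 0.65). It has near-identical copies, Bcl2a1a and Bcl2a1d, so its counts may be shared. Bmf, a BH3-only gene, was lower under the knockout label on resveratrol, with 3.74, 2.9 and 3.12 CPM against 11.3, 9.46 and 10.5 CPM in WT on resveratrol (-1.71, SE 0.37, adjusted p = 0.0197 by edgeR). Between knockout-labelled and WT 10-month controls, where 3.86% of all genes were called, 2 of 20 caspase machinery genes were called higher and 0 lower. Of 11 other relatives tested 1 was called higher and 0 lower, and of 11 p53 genes tested 0 in either direction. None of those 11 p53 genes, which do not include the member Pmaip1, was called in any granulosa contrast of age, genotype or resveratrol. For age in WT 3 of the 11 had an unadjusted p under 0.05 by edgeR, where 16% of all genes did.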

How the data were processed

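The authors deposited unnormalized whole-number counts for each gene. The programs HISAT2 2.1.0, featureCounts and DESeq2 and the build mm10 are listed, without roles, in the submitters' processing notes. Members, lists and tests were chosen with earlier results of these data known, and the genes named from lists are up to 4 called per list and contrast with the lowest p. The test was edgeR's quasi-likelihood F test (version 4.0.16, R 4.3.3) after TMM scaling, filterByExpr (minimum count 10) and Benjamini-Hochberg adjustment over all genes at 0.05. The SE given with an edgeR log2 fold is that fold's absolute value divided by the square root of F. It is an approximation and not a separately fitted standard error. Granulosa pools entered 1 model of 6 groups (12 residual degrees of freedom). Oocytes of a group were summed, since no animal is named, and the 10 sums were fitted with additive terms for age, genotype and treatment (5 residual degrees of freedom). Matched sums of both cell types entered a model with the group as block. Separate animals are not named for granulosa pools either, so p-values measure the spread between these libraries, which may be technical. C57BL6 sums got no test, and 0.5 counts were added before each log2 ratio, whose 95% interval is the exact conditional Poisson one. Intervals and the floor of 3 counts cover counting error only. Levels per length use merged exons of GENCODE vM21 (GRCm38), which also gave the sequences. Likeness used genes with a mean of at least 10 CPM in oocytes. The labels give the cells per granulosa pool in conflicting numbers. Fits were tested on simulated data. Alternatives were RLE factors, no filter, DESeq2 1.42.0, only the groups compared, a replicate block, one depth, no shallow libraries, and each library or sum left out.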

Additional observations from a re-analysis of the deposited data

Results flagged for a closer look

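In the C57BL6 oocytes some members had 1 oocyte far above the rest of its group by Dixon's criterion, over 20 checks, of which chance flags about 1 in 20. That rate supposes continuous values, and most of these rest on so few reads that a gap to the rest follows almost by construction. In the group on resveratrol at 10 months, 1 oocyte had the highest Bcl2, at 2.38 CPM (next 0.868), and also the highest Pmaip1, at 2.38 CPM (next 0.609), each from 16 reads. In that group 2 other oocytes had the highest Bak1, at 0.555 CPM from 3 reads (next 0.209), and the highest Bbc3, at 0.144 CPM from a single read with all others at 0. Among the 6 oocytes of 10-month controls, the highest Bbc3 was 0.176 CPM, from 2 reads with all others at 0. A different oocyte of those controls had the highest Pmaip1, at 0.589 CPM from 3 reads (next 0.172).

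The C57BL6 oocyte whose title names resveratrol and whose treatment tag names control entered no comparison above. Its Bax level of 5.49 CPM lay above the highest of the 10-month controls (4.91 CPM) and below the highest of the 10-month oocytes on resveratrol (7.81 CPM). Its Bcl2l10 level of 6230 CPM lay within the range of both groups.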

How the results depend on the processing

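Of 1943 member values recomputed, 1901 kept their direction and their side of the threshold, counting 139 changes of sign that passed in neither fit and stayed within 1 SE, 15 lost the call, 7 gained it and 20 reversed, of which 0 passed in either fit. The cause of these changes was not tested. Lower Bcl2l10 in 10-month WT granulosa controls kept its call in the 12 alternatives that were run. Leaving out the shallow libraries was not among these 12, since no WT library at 2 months exceeds 1000000 counts. Under the knockout label that setting gave Bcl2l10 a log2 fold of -1.39, from a lone 2-month library, against -4.0 with all pools. Higher Bcl2l10 and Bcl2l1 in oocytes kept their calls.

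For age under the knockout label 2 members were called, against 1 with RLE factors, 1 with only the groups compared, 1 at one depth, 0 without the shallow libraries and 1 to 3 with each replicate left out. For genotype in 10-month controls 1 was called (Pmaip1), and 1 to 2 with each replicate left out. With only the groups compared and at one depth 0 were called, as Pmaip1 failed the filter in both. For resveratrol in WT 1 was called without the filter (Pmaip1) and 1 with only the groups compared (Bcl2l1), and for the interaction of resveratrol and genotype 1 without the filter (Pmaip1). For genotype in oocytes 1 was called (Bcl2l1, log2 fold -0.37, adjusted p = 0.0476 by edgeR) with sums by the number in the column names, an alternative chosen after seeing the data. No label says what that number marks, and in 2-month WT oocytes sets hold as few as 1 or 2 oocytes. These sums may therefore not be independent replicates. For C57BL6 Bcl2l10, resveratrol gave -0.036 and age -0.52 by means of CPM, and resveratrol 0.053 with the oocyte of contradictory labels.

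Counts of all genes called moved further, over all alternatives from 60 to 936 for age in WT (268 reported), 104 to 1397 for age under the knockout label (908), 3 to 1783 for resveratrol in WT (285) and 150 to 1284 for genotype in 10-month controls (678). In oocytes the sums by column number called 574, 2210 and 2881 genes for the age contrasts in the order of the report (0, 1 and 1 reported) and 1474 for genotype (29).

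Reversals in granulosa pools at one depth were Bid at -0.29 for age in WT and 0.15 for resveratrol in WT, and Bcl2l10 at 1.52 for the interaction of resveratrol and genotype. Without the shallow libraries, age under the knockout label gave 0.12 for Bcl2l1, 0.26 for Bax, 0.84 for Bak1 and 0.0023 for Bbc3. With each replicate left out, the ranges were -0.52 to 0.15 for Bax and -1.73 to 0.021 for Bbc3 (age, knockout label), -0.67 to 0.37 for Bid and -5.64 to 7.33 for Pmaip1 (genotype, 2 months), -0.085 to 0.32 for Bid (genotype, 10-month controls), and -6.61 to 0.57 for Bcl2 and -0.30 to 0.34 for Bax (interaction of age and genotype). With each oocyte sum left out, they were -0.18 to 0.66 for Bax and -0.25 to 0.33 for Bid (6 against 2 months), and -0.78 to 0.29 for Bcl2, -0.15 to 1.01 for Mcl1, -0.52 to 0.32 for Bax and -0.36 to 0.22 for Bid (10 against 2 months).

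Replicate numbers of the granulosa pools did not pair them, since deviations of same-numbered libraries correlated between -0.16 and 0.17. With the replicate block no member changed its call, and Bcl2l10 gave -3.90 for age in WT and -3.81 under the knockout label, Mcl1 0.96 (adjusted p = 0.0231 by edgeR) and Pmaip1 an adjusted p of 0.00517 by edgeR. In oocytes, pairing knockout and WT sums within age and treatment as a block called 0 members and 8 genes for genotype, against 29 genes without it. RLE factors moved the median log2 fold of all genes by -0.11 for age in WT, -0.10 under the knockout label and 0.16 between cell types. Depth limits Bcl2, Bbc3, Bak1 and Pmaip1 most, with 0 to 8 reads in most 2-month pools.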

Other observations

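Other BH3-only genes and relatives of the family were counted more evenly than Bbc3 and Pmaip1 in oocytes. Bcl2l11, which encodes BIM, had a count in every C57BL6/129 oocyte and in all 18 granulosa pools, with a median of 18.2 CPM in oocytes and 15.2 CPM in granulosa pools. Bik, a BH3-only gene, had a median of 7.91 CPM in oocytes and 1.38 CPM in granulosa pools. The mitophagy receptor gene Bnip3l had 123 CPM in oocytes and 319 CPM in granulosa pools. Trp73, a p53 relative, had a count in every such oocyte (median 3.59 CPM) and in 0 of 18 granulosa pools. These are medians of plain CPM and were described after their values were seen.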
